A study of Mus musculus with 8 samples.

Results

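The genes that encode the proteins of the cytosolic ribosome were followed in embryonic mouse skin. They were taken from the authors' deposited table by symbol, as Rpl or Rps with a number and no ending or the ending a, x, l, al or l1, together with Rplp0, Rplp1, Rplp2 and Rpsa, and symbols marked as pseudogenes (-ps) were left out. This gave 84 of the 20152 genes listed, 52 of the large subunit and 32 of the small subunit. Rpl6l, Rpl32l and Rps4l, 3 of the 84, are annotated as processed pseudogenes in GENCODE vM21 although their symbols do not say so. Without the genes whose symbols carry the ending of a copy (l, l1 or al), 76 remain (46 large and 30 small). RNA had been sequenced from back skin at E14.5 (a stage counted in embryonic days) in GNAQ R183Q embryos and in wild-type (WT) embryos, with 4 libraries each. The submitters describe the samples of a genotype as biologically independent, and all 8 libraries carry the same batch label. The GNAQ gene product is the alpha subunit of Gq, a G protein that links receptors to phospholipase C, and R183Q is an activating change known from capillary malformations. The labels do not say in which cells or from which promoter the changed protein was made, whether the allele was heterozygous, or what sex and litter the embryos had. Every value per genotype used here is a summary by the authors, so values of single libraries and their depth are unknown.

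A cytosolic ribosome reads the mRNA on its small subunit and joins amino acids on its large subunit. Its proteins are needed in fixed proportions, and their mRNAs are among the most abundant of a cell. These mRNAs begin with a run of pyrimidines, the terminal oligopyrimidine (TOP) tract, through which mTORC1 and Larp1 control their translation and stability together. In mouse skin, reduced function of Rps19 or Rps20 is known to stabilise p53 in keratinocytes and to darken the skin.

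Most cytosolic ribosomal protein genes had somewhat lower expression in GNAQ R183Q skin, but only Rpl36 passed the threshold. The log2 fold change (GNAQ R183Q over WT) in the authors' deposited table was negative for 78 of 84 members, which is 92.9%, against 49.0% of all genes. The median was -0.39, a 1.31-fold lower level, against 0.01 over all genes and 0.03 over the tenth of genes with the highest average expression. At the authors' adjusted p of 0.05 from DESeq2, 1 member fell and 0 rose, while 2.46% of all genes fell and 0.63% rose. At an unadjusted p of 0.05 the members held 25 lower genes and 1 higher gene, against shares of 8.23% and 5.94% among all genes. The members were measured in the same 8 libraries and are not independent of each other, and how far single libraries set the shared direction was not tested. In bulk RNA, fewer cells with many ribosomes and less ribosomal protein mRNA per cell cannot be told apart.

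**Figure D1:**
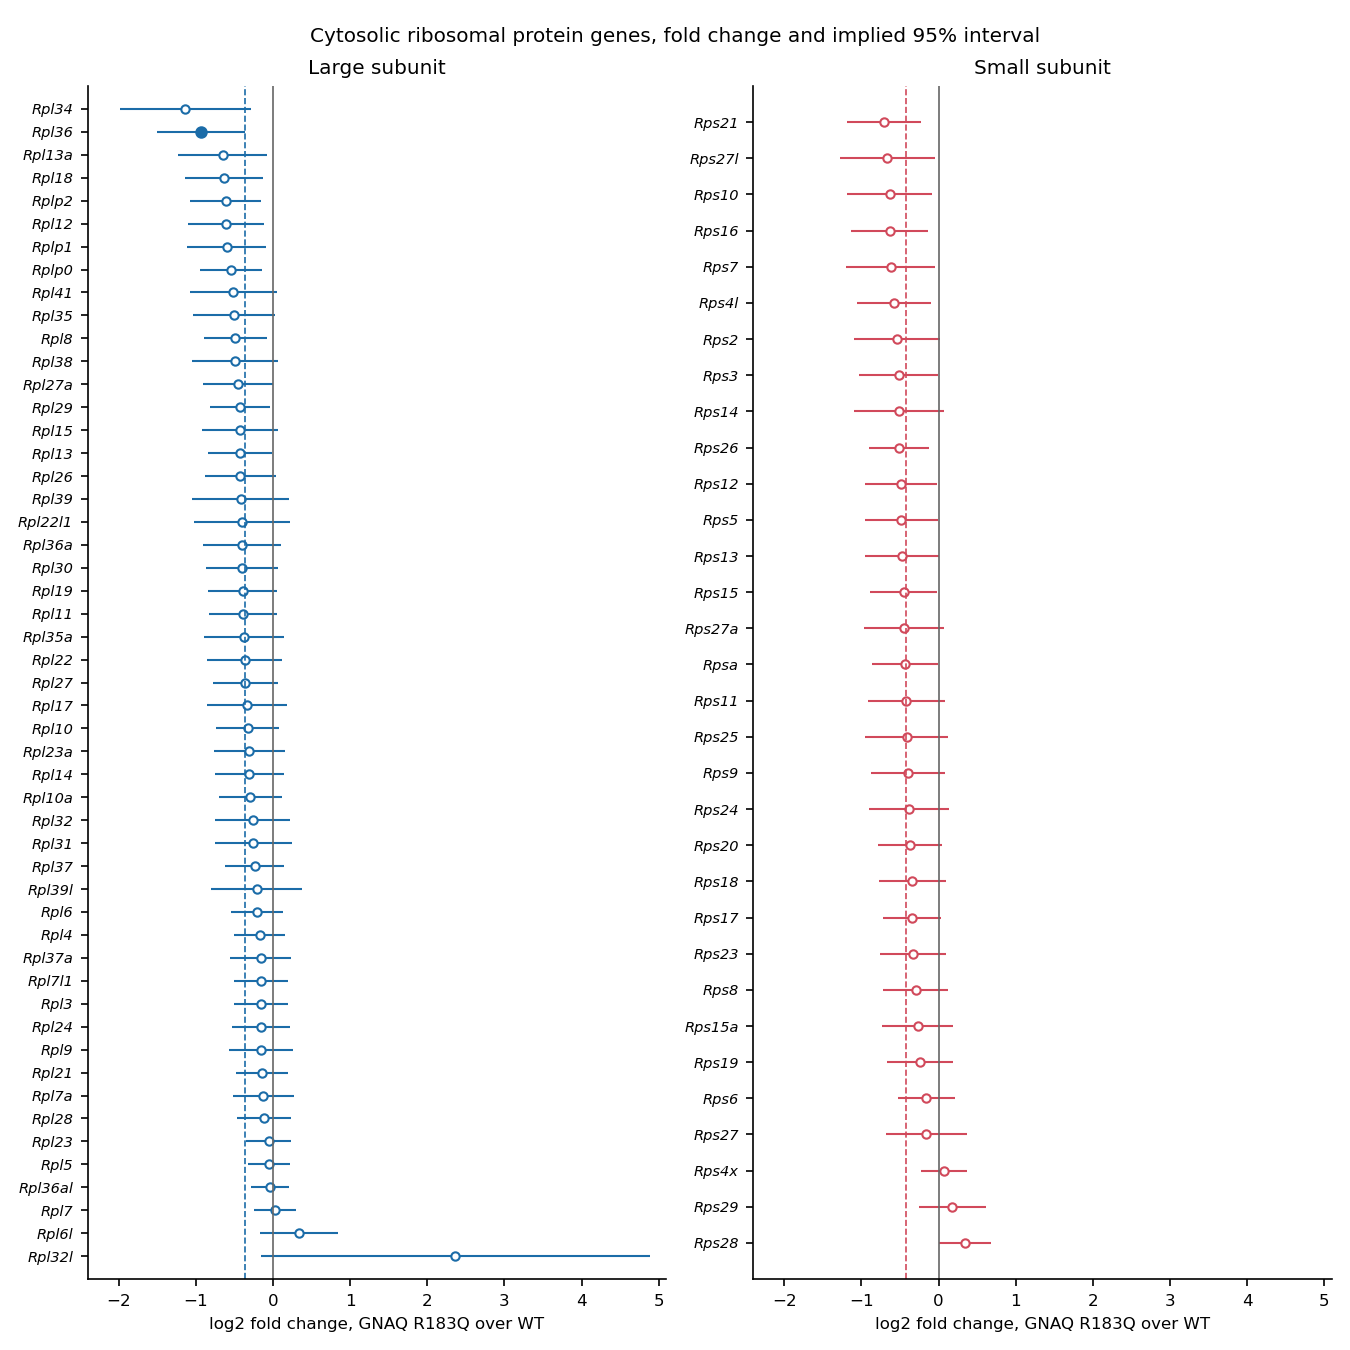
Log2 fold change of GNAQ R183Q over WT for genes of the large and the small subunit (1 large-subunit member is not drawn), with the 95% interval implied by the authors' p. The filled point (Rpl36) passed an adjusted p of 0.05, open points did not, and dashed lines mark the subunit medians of -0.36 and -0.42. Nearly all points lie left of 0, with the interval of Rps28 alone wholly above it.

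Rpl36, a small protein of the large subunit, fell in GNAQ R183Q skin. Its average expression was 2819 in the authors' deposited table, and the fold change splits this into implied levels of 1935 in GNAQ R183Q and 3703 in WT skin. The mean z-score of log2 CPM (read counts scaled to library size; the z-score is centred and scaled across the 8 libraries) was -0.65 in GNAQ R183Q and 0.65 in WT in the authors' deposited table. The DESeq2 adjusted p in the authors' deposited table was 0.0443 for a log2 fold change of -0.94 (implied 95% interval -1.51 to -0.37). The call sits just inside the threshold, and the adjusted p was 0.129 once a trend of fold changes with transcript length and GC content was removed. A mean z-score above 0.810 in size would require all 4 libraries of one genotype to lie above all 4 of the other. The Rpl36 value is below that bound, which does not show whether the libraries overlap.

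The large and small subunits had similar median fold changes, and the difference between them was not tested. Large-subunit genes had a median log2 fold change of -0.36 with 49 of 52 negative, and small-subunit genes had a median of -0.42 with 29 of 32 negative, in the authors' deposited table. The difference of the medians, large minus small, was 0.06. The median implied standard error of a single member, 0.234, is no error for this difference, because the subunits share their libraries. At an unadjusted p of 0.05, 13 of 52 large-subunit and 12 of 32 small-subunit genes were lower, against 8.23% of all genes. Of these members Rpl36 alone passed the adjusted threshold. Summed over genes, implied levels gave a log2 ratio of -0.32 for the large and -0.40 for the small subunit. The mitochondrial ribosomal proteins, which serve a separate ribosome inside mitochondria, also leaned downward, with 72 of 78 negative, a median of -0.23 and 7 lower at an unadjusted p of 0.05, against 8.23% of all genes. Of these Mrps26 fell, which the authors' deposited table gives as -0.66 with a DESeq2 adjusted p of 0.0237.

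**Figure D2:**
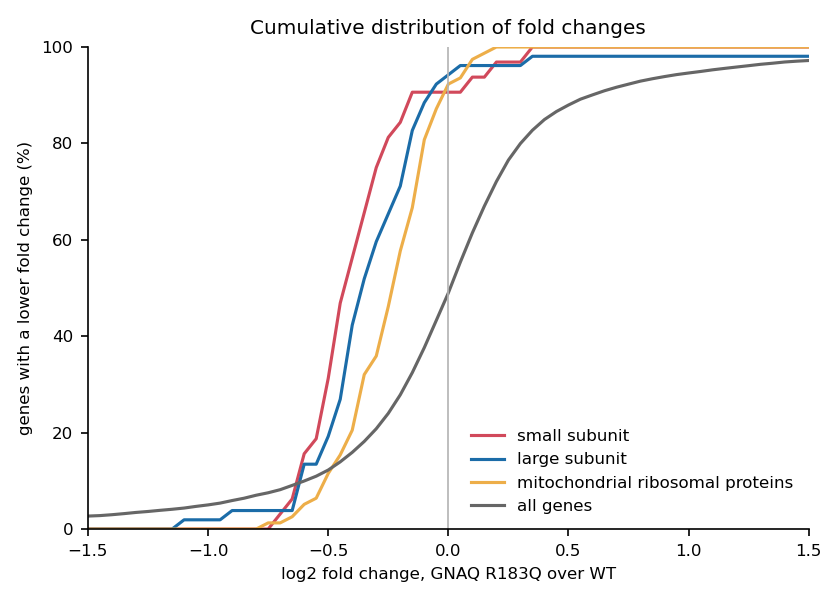
Cumulative share of genes (%) below each log2 fold change of GNAQ R183Q over WT, for small-subunit, large-subunit and mitochondrial ribosomal protein genes and for all genes. At mid-height the curves stand in the order small subunit, large subunit, mitochondrial and all genes from left to right, with medians of -0.42, -0.36, -0.23 and 0.01.

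The lowest values of the large subunit after Rpl36 included the proteins of the stalk, the flexible arm that recruits elongation factors. Rplp0, which anchors the stalk, had implied levels of 43453 in GNAQ R183Q and 63311 in WT skin, and the authors' deposited table gives it a log2 fold change of -0.54 (implied interval -0.95 to -0.14, DESeq2 adjusted p 0.147). The acidic stalk proteins gave -0.60 for Rplp1 and -0.61 for Rplp2, and the stalk-base protein gene Rpl12 gave -0.61, in the authors' deposited table. All 4 stalk genes were thus lower at an unadjusted p of 0.05, against 25 of the 84 members and 8.23% of all genes. Of the 4, 0 passed the adjusted threshold of the authors' DESeq2 test, at which 2.46% of all genes fell. Rpl34 had the lowest value of all members, -1.13, Rpl13a had -0.65 and Rpl18 had -0.64 in the authors' deposited table, where their DESeq2 adjusted p lay between 0.151 and 0.265. Rpl5 and Rpl11, which bind 5S rRNA and can bind Mdm2 to stabilise p53, had -0.05 and -0.39 in the authors' deposited table. For Rpl5 the interval of -0.33 to 0.23 bounds the difference in either direction. The genes of 9 proteins that line or surround the exit tunnel were all negative with a median of -0.37. Of these 9, 0 had an unadjusted p under 0.05, against 25 of the 84 members and 8.23% of all genes that were lower. Rpl38, whose loss in mice disturbs Hox mRNA translation, had -0.49 (interval -1.05 to 0.07), Rpl10, a late-joining protein near the peptidyl-transferase centre, had -0.32, and Rpl22, known for its role in T cell development, had -0.37 in the authors' deposited table.

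In the small subunit the lowest values belonged to Rps21, Rps27l, Rps10, Rps16 and Rps7. Rps21 had implied levels of 2823 in GNAQ R183Q and 4613 in WT skin, and the authors' deposited table gives it a log2 fold change of -0.71 and the second smallest p of all members (DESeq2 adjusted p 0.0938). Rps10 gave -0.63, Rps16 -0.63 and Rps7 -0.62 in the authors' deposited table. Rps26, which contacts the mRNA at the exit channel, gave -0.51 in the authors' deposited table (interval -0.90 to -0.12). Rpsa, also known as the laminin receptor precursor, had the highest level of all members, with implied levels of 92954 in GNAQ R183Q and 125127 in WT skin and a log2 fold change in the authors' deposited table of -0.43 (unadjusted DESeq2 p 0.0497). Rps6, the target of the S6 kinases, gave -0.16 (interval -0.53 to 0.21), and Rps27 also gave -0.16, in the authors' deposited table. Rps19 and Rps20, whose mouse mutants have dark skin, gave -0.24 (interval -0.66 to 0.19) and -0.37 (interval -0.79 to 0.05) in the authors' deposited table. Of 9 genes mutated in human Diamond-Blackfan anaemia, all were negative with a median of -0.38, and 0 passed the authors' adjusted threshold. At an unadjusted p of 0.05, 3 of the 9 were lower, against 25 of the 84 members and 8.23% of all genes.

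A few members went the other way. Rps28, which lies beside Rps26 at the mRNA exit, had implied levels of 4210 in GNAQ R183Q and 3324 in WT skin, and the authors' deposited table gives it a log2 fold change of 0.34 (unadjusted DESeq2 p 0.0485, adjusted p 0.349). Its mean z-score was 0.65 in GNAQ R183Q and -0.65 in WT in the authors' deposited table. Rps29 had 0.18 (interval -0.25 to 0.61), the X-linked Rps4x had 0.07 and Rpl7 had 0.02 in the authors' deposited table. The remaining positive members were the low copies Rpl6l and Rpl32l described below. The highest of the other large-subunit genes were Rpl36al at -0.04, Rpl5 at -0.05 and Rpl23 at -0.05 in the authors' deposited table, and Rpl36al turned to 0.01 once the trend with length and GC was taken out.

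The WT libraries differed among themselves in these genes. With 4 libraries, the median is the mean of the middle pair, and the mean and median together give the mean of the outer pair (the highest and the lowest library). Over the 84 members, the middle pair had a median z-score of -0.35 and the outer pair -0.42 in GNAQ R183Q skin, against 0.11 and 0.58 in WT skin. In WT the median lay below the mean for 70 of 84 members, which is 83.3%, against 50.6% of all genes. In GNAQ R183Q skin it lay below the mean for 29 members, or 34.5%, against 55.5% of all genes, and above the mean for 55. For 26 members the WT middle pair was below 0, the average of all 8 libraries, while the WT outer pair was above 0 for 77. For most members the highest WT library thus lay farther above the middle pair than the lowest lay below it, and whether it was the same library for each was not tested. The middle pair of WT still lay above that of GNAQ R183Q for 73 members, or 86.9%, against 47.1% of all genes.

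**Figure D3:**
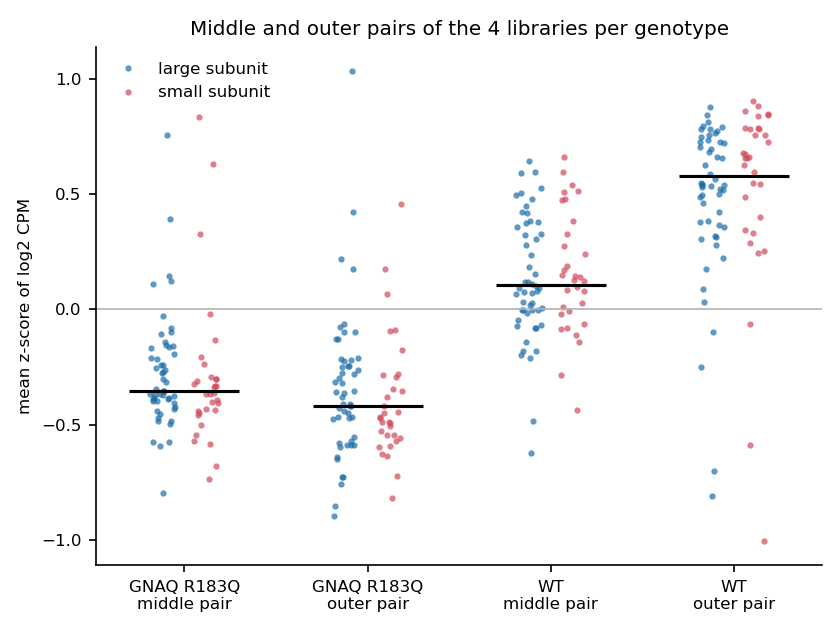
Mean z-score of log2 CPM for the middle pair and the outer pair of the 4 libraries of each genotype, one point per member. Black lines are medians over the 84 members (-0.35 and -0.42 in GNAQ R183Q, 0.11 and 0.58 in WT). The GNAQ R183Q pairs sit at similar heights, while the WT outer pair sits well above the WT middle pair.

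The spread within genotypes also limited the tests. The largest mean z-score of a member was 0.717 in size, so 0 members passed the bound of 0.810 for full separation, against 2.58% of all genes. A value below the bound does not show that libraries of the 2 genotypes overlap. A linear model with genotype as its only term, rebuilt from the mean z-scores with 6 residual degrees of freedom, gave 2 lower members, Rpl34 among them, and 1 higher (Rpl32l) at an unadjusted p of 0.05. Rpl36 was not one of the 2, with an unadjusted p of 0.0547 in the linear model. Among all genes 6.51% were lower by that model, so by that model the share of members was not above the background. The linear model called 0 genes of the whole table after adjustment, its smallest adjusted p being 0.0503.

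The level of the members spread widely around a high centre. Together they made up 6.60% of the summed average expression of the table, 3.92% from the large and 2.68% from the small subunit. Per kilobase of annotated transcript, the median average expression was 24622 over the members and 150 over all genes, and 49 members were among the 100 genes with the highest level per kilobase. Rpsa led with 68193 per kilobase, followed by Rps12 with 60297, Rpl23a with 57939, Rpl19 with 50101 and Rpl26 with 49208. The lowest were Rpl32l at 5.72, Rpl6l at 78.7, Rpl39l at 312, Rps4l at 1001 and Rps20 at 1916 per kilobase, where Rps20 is divided by an annotated transcript of 3706 bases that is long for this family. Level and fold change were unrelated in order, with a Spearman correlation of -0.0014 between level per kilobase and log2 fold change over the 83 members of at least 1 CPM. Genes of higher GC content tended to lower fold changes, with a Spearman correlation of -0.34 over the same 83. It was -0.46 over the 51 large-subunit and -0.15 over the 32 small-subunit genes among them. These points share their libraries. All genes of at least 1 CPM leaned the same way, with a median log2 fold change of -0.09 above and 0.04 up to the members' median GC. The fitted length and GC trend had a median of -0.08 over the members, and after its removal 75 of 84 were negative with a median of -0.29.

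**Figure D4:**
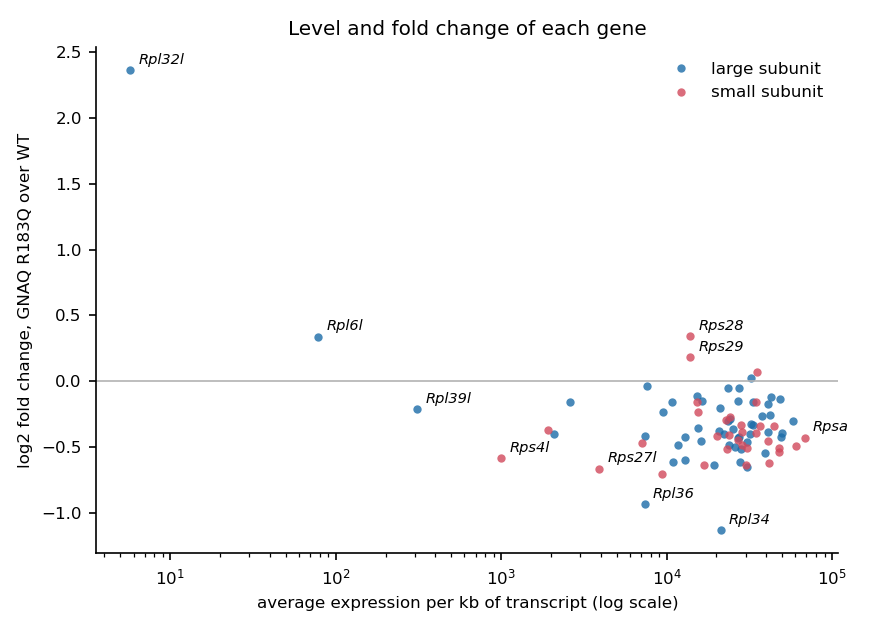
Average expression per kilobase of transcript (log scale) and log2 fold change of GNAQ R183Q over WT for each member. Fold changes between -1.13 and 0.34 occur at levels from 1001 per kilobase upward with no slope, and Rpl32l, the lowest in level at 5.72, stands at 2.36.

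Paralogues that replace or duplicate a member were lower in level than their parents in all 8 pairs, the parent being 2.95 to 6631 times higher per kilobase. Rpl22l1, the counterpart of Rpl22, reached 2083 per kilobase against 25095 for Rpl22, and the log2 fold changes were -0.40 and -0.37 in the authors' deposited table. Rpl7l1 and Rpl7 gave -0.16 and 0.02, Rpl36al and Rpl36a gave -0.04 and -0.40, and Rpl39l, known from testis, and Rpl39 gave -0.21 and -0.42, in the authors' deposited table. Rps27l, a p53 target, gave -0.66 (interval -1.28 to -0.05), against -0.16 for Rps27 (interval -0.68 to 0.36) in the authors' deposited table. Rps4l gave -0.58 (interval -1.06 to -0.10), against 0.07 for Rps4x (interval -0.23 to 0.36) in the authors' deposited table. These intervals overlap, and the differences within pairs were not tested. The transcripts of Rpl6l and Rpl32l, which have no annotated coding part, share 98.7% and 97.2% of the bases aligned to the coding sequences of Rpl6 and Rpl32, so reads could be split between them. Rpl6l gave 0.34 and Rpl6 -0.21, while Rpl32l, under 1 CPM with an average expression of 2.28, gave 2.36 (interval -0.15 to 4.88) and Rpl32 -0.26 in the authors' deposited table.

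Near-identical copies matter because 78 of the 84 members have at least 1 annotated gene elsewhere that matches their coding sequence at 95% identity or more over at least 90% of its length. The median was 5 such copies, with 56 for Rpl21. Outside the members, 47 copies were in the table, with 19 negative and 28 positive log2 fold changes and a median of 0.12. Of these, 27 were under 1 CPM, and the 20 of at least 1 CPM had 10 negative and 10 positive values and a median of -0.02. By the authors' DESeq2 test 1 copy passed the threshold. That copy was Rpl34-ps1, a processed pseudogene on chromosome 6, which rose in GNAQ R183Q skin. Its implied levels were 3417 in GNAQ R183Q and 73.0 in WT skin, and the authors' deposited table gives it a log2 fold change of 5.55 (implied interval 3.26 to 7.84, DESeq2 adjusted p 0.000237). Its median z-score was 1.14 in GNAQ R183Q and -0.81 in WT, and its mean z-score 0.72 in GNAQ R183Q and -0.72 in WT, in the authors' deposited table. The mean is below the bound for full separation, which by itself does not show overlap of the genotypes. The outer pair averaged 0.30 in GNAQ R183Q and -0.63 in WT, so at least 1 GNAQ R183Q library lay well below the middle pair. The coding sequence of Rpl34 on chromosome 3 has 351 bases, and the copy differs from it at 2 of them, T132C and C318G, counted from the first base of the start codon with the base of Rpl34 first. The stretches around both are shown because they are the only coding positions at which reads of the gene and the copy can be told apart, with the differing base in capitals.
Rpl34, bases 117 to 146: gaaagcacctaaatcTgcatgtggcgtgtg
Rpl34-ps1, same stretch: gaaagcacctaaatcCgcatgtggcgtgtg
Rpl34, bases 303 to 332: aatcgttgtgaaagtCttgaaggcacaagc
Rpl34-ps1, same stretch: aatcgttgtgaaagtGttgaaggcacaagc
These sequences are from the GENCODE vM21 transcripts. Rpl34 itself had implied levels of 6380 in GNAQ R183Q and 14002 in WT skin. Summed, gene and copy had implied levels of 9798 in GNAQ R183Q and 14075 in WT skin, a log2 ratio of -0.52. The copy took 34.9% of the sum in GNAQ R183Q and 0.519% in WT. Rpl34 alone had the lowest value of the members, while the summed ratio lies within the range of the other members. How reads were assigned between gene and copy, and what sets the difference between the genotypes, was not tested. For Rps6 the copy Rps6-ps4 is identical over the whole coding sequence, took 44.9% of the summed average expression and had -0.24 against -0.16 for Rps6 as its log2 fold change in the authors' deposited table.

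**Figure D5:**
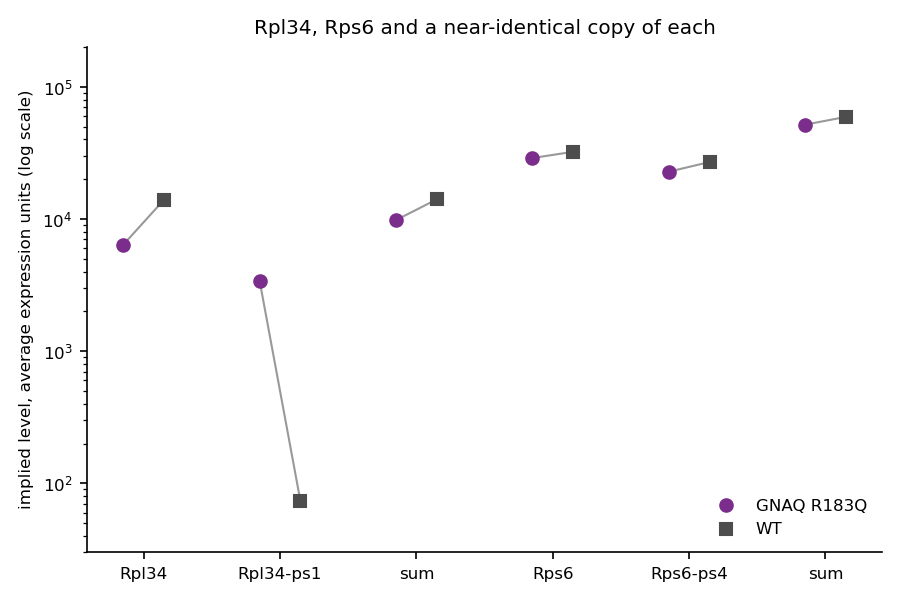
Implied levels (average expression units, log scale) of Rpl34, Rps6, a near-identical copy of each and their sums, in GNAQ R183Q (circles) and WT (squares). Rpl34-ps1 stands at 3417 in GNAQ R183Q and 73.0 in WT, opposite in direction to Rpl34, while Rps6 and Rps6-ps4 both lie slightly lower in GNAQ R183Q.

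Promoter windows of RefSeq (GRCm38.p6, 250 bases before to 50 after an annotated start) were at hand for 62 members. A run of at least 8 C or T letters on the gene strand, reaching into the window from 10 bases before to 20 after a start, was in 32 of the 62, or 51.6%, against 20.3% of the 15212 genes of the table with a window. The ETS core CCGGAAG, on either strand anywhere in the window, was in 40.3% of members and 15.4% of all genes. The YY1 core GCCATNTT was in 21.0% and 8.14%, the Sp1 core GGGCGG in 61.3% and 58.2%, and TATAAA in 12.9% and 10.9%. Among the 11235 genes of at least 1 CPM with a window, the pyrimidine run was in 20.4% and the ETS core in 18.8%. There the YY1 core was in 9.35%, TATAAA in 9.11% and the Sp1 core in 67.1%, above its share in the members. The median log2 fold change was -0.40 in the 32 members with the pyrimidine run and -0.34 in the 30 without it. The direction differed by subunit, at -0.40 with and -0.22 without the run among large-subunit genes and -0.40 with and -0.46 without it among small-subunit genes. Members with and without the ETS core had medians of -0.43 and -0.32, and the Sp1 core gave -0.43 and -0.28. For the YY1 core the medians with and without it were -0.27 and -0.41, and for TATAAA -0.40 and -0.39. The bases from 30 before to 20 after the start are shown for the 6 members of smallest p that have a window. They are also shown for the 3 with the highest fold changes among members of at least 1 CPM that have a window. Members of small p, all lower in GNAQ R183Q skin, thus stand beside members with higher fold changes. Where a gene has several starts, the one with the longest run is shown, and capitals mark a pyrimidine run of at least 8 letters.
Rps21 (chr2:180257349-180257398, plus strand): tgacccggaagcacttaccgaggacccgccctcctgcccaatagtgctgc
Rplp0 (chr5:115559437-115559486, plus strand): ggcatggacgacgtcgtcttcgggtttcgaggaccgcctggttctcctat
Rpl34 (chr3:130730318-130730367, minus strand): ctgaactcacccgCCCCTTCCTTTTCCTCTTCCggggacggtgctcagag
Rplp2 (chr7:141447621-141447670, plus strand): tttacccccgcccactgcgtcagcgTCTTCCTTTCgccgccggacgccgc
Rps26 (chr10:128626487-128626536, minus strand): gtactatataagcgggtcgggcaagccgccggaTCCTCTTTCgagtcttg
Rps16 (chr7:28350659-28350708, plus strand): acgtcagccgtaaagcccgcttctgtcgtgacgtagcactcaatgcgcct
Rps28 (chr17:33824543-33824592, minus strand): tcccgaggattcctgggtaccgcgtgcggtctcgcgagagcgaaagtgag
Rps4x (chrX:102189372-102189421, minus strand): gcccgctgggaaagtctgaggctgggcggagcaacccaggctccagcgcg
Rpl36al (chr12:69184048-69184097, minus strand): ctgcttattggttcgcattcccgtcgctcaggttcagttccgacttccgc
Of the 6 with the smallest p, Rpl34, Rplp2 and Rps26 carry such a run and Rps21, Rplp0 and Rps16 do not. Rps21 and Rplp0 fall just short of the minimum of 8, with longest runs of 7 letters, and Rps16 has 5. Rps28, Rps4x and Rpl36al, with 0.34, 0.07 and -0.04 in the authors' deposited table, carry none. Their longest runs have 4, 4 and 5 letters. Annotated starts can differ from those used in skin, so a missing run says only that these letters are not in the window.

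Translation factors and ribosome assembly genes had medians nearer 0 than the ribosomal proteins, while Fau and Rack1, ribosome components outside the symbol rule, lay among them. Ribosome components that the symbol rule leaves out gave -0.68 for Fau, -0.45 for Rack1 and -0.14 for Rps3a1 in the authors' deposited table, with 0 of these 3 past the authors' DESeq2 threshold and Fau at an unadjusted p of 0.0119. For the lists that follow, the shares of all genes in the authors' DESeq2 test were 2.46% lower and 0.63% higher after adjustment. At an unadjusted p of 0.05 they were 8.23% lower and 5.94% higher. The 9 genes of the elongation list, which also holds Tpt1 and the kinase Eef2k, were all negative with a median of -0.26. The 1 gene of the list that fell was Eef2k, which inhibits Eef2, with -0.63 in the authors' deposited table. The abundant Eef1a1 gave -0.10 and Eef2 gave -0.26 in the authors' deposited table, and for Eef2 the implied interval of -0.50 to -0.01 lies below 0. Of 36 initiation factor genes 0 passed the authors' DESeq2 threshold, 2 were lower at an unadjusted p of 0.05 and the median was -0.09, with the smallest p for Eif6 at -0.50 in the authors' deposited table. Of 58 ribosome assembly genes 0 passed, 3 were lower and 2 higher at an unadjusted p of 0.05, and the median was 0.04, with the smallest p for Nhp2 at -0.65 in the authors' deposited table. Of 20 genes of RNA polymerases I and III 0 passed, 0 had an unadjusted p under 0.05 and the median was -0.05, with the smallest p for Taf1a at 0.31 in the authors' deposited table.

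By the authors' DESeq2 test 1 of 24 genes of mTORC1 and TOP mRNA control, 1 of 10 Myc family genes and 3 of 20 genes of a p53 list fell and 0 rose, against 2.46% of all genes lower. The p53 list holds p53, its regulators and its targets, and Sesn2 is in both the first and the last of these lists. Among 24 genes of mTORC1 and TOP mRNA control the median was 0.01, with Mtor at 0.08 and Larp1 at 0.10, and Sesn2, a stress-induced inhibitor of mTORC1, fell, with -0.66 in the authors' deposited table. Among 10 Myc family genes the antagonist Mxd4 fell, with -0.64, while Myc gave -0.05 and Mycn 0.17 in the authors' deposited table. Of the 20 genes of the p53 list 3 fell and 0 rose in the authors' DESeq2 test: the cell cycle inhibitor Cdkn1a at -0.88, Sesn2 at -0.66 and the desmosome-associated Perp at -0.64, while Mdm2 gave 0.02, in the authors' deposited table. The median of the p53 list was -0.19, and this list includes Rps27l, itself one of the ribosomal protein members.

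Markers of several cell types differed in the same comparison. The 12 suprabasal keratinocyte markers had a summed implied level of 64176 in GNAQ R183Q and 162111 in WT skin, and a median log2 fold change of -1.81 with 10 of 12 lower in the authors' DESeq2 test, including Lor at -3.70, Krt77 at -2.28, Calm4 at -2.79 and Sbsn at -1.76 in the authors' deposited table. Basal keratinocyte markers summed to 60846 in GNAQ R183Q and 69982 in WT skin and had a median of 0.04 with 1 of 8 lower, Krt15 at -1.01, and Krt5 and Krt14 gave -0.12 and -0.19, in the authors' deposited table. Skeletal muscle markers summed to 35559 in GNAQ R183Q and 40212 in WT skin and had a median of -0.30 with 3 of 10 lower (Ckm, Tnni2 and Tnnt3). The 3 embryonic globins listed summed to 14960 in GNAQ R183Q and 7645 in WT skin, and Hbb-y rose, at 0.98 in the authors' deposited table. The 8 adult erythroid genes summed to 107888 in GNAQ R183Q and 133026 in WT skin, and the authors' deposited table has falls of Hemgn (-0.95) and Hba-a2 (-0.65), where Hba-a2 is uncertain because Hba-a1 is nearly identical. Dermal fibroblast markers summed to 246897 in GNAQ R183Q and 276652 in WT skin and had a median of -0.17 with 1 of 8 lower (Dpt), and 0 of 8 macrophage and 0 of 8 endothelial markers passed the authors' DESeq2 threshold, with 1 (Pf4) and 0 at an unadjusted p of 0.05. Macrophage markers summed to 6848 in GNAQ R183Q and 6648 in WT skin, and endothelial markers to 8060 in GNAQ R183Q and 8042 in WT skin. None of these markers was at 0 in average expression. The part of these shifts in the values of the ribosomal protein genes was not tested. Gnaq itself gave 0.09 (interval -0.16 to 0.34) in the authors' deposited table, a level in which the alleles cannot be told apart, so that it is no check of the labels.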

How the data were processed

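The values are the authors' own comparison of 4 GNAQ R183Q and 4 WT libraries (20152 genes). The submitters' processing notes name DESeq2 and mm39, and no aligner, counter, annotation, strand setting or fit formula (not given in the sources used here). Per the file headers, average expression is a signal the authors averaged over libraries, and 26.8 units equal 1 CPM if it is read as normalized counts. Per the file headers, the authors' DESeq2 comparison gave the log2 fold change (GNAQ R183Q over control), its p-value and an adjusted p-value. The z-score columns are scores the authors made from log2 CPM, per the file headers, as mean and median per genotype. Depth per library is unknown.

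From these were computed an implied standard error (absolute log2 fold change over the normal quantile of p, assuming a Wald test) with a 95% interval, and implied genotype levels that split the average expression by the fold change with equal weights. A linear model was rebuilt from the mean z-scores. Length and GC came by symbol from 1 transcript per gene of GENCODE vM21 (GRCm38, not the authors' build), a protein-coding one where annotated, then a principal one, then the shortest, matched for 87.5% of genes and all 84 members, and their trend was fitted with splines of 4 degrees of freedom (patsy 1.0.2) on 13786 genes of at least 1 CPM. Copies were found with blastn 2.17.0. The arithmetic of the rebuilt model and the implied error, and the removal of a known trend, were tested on simulated data. These simulations could not test whether the authors' p came from a Wald test. Named were members past the threshold, the 5 highest and lowest fold changes and smallest p per subunit, the 5 highest and lowest levels per kilobase, copies with parents, members under 1 CPM, genes of known roles, and up to 4 called genes of each list or the smallest p. Rpl12, Rpl21, Rack1, Rps3a1, Gnaq, Mtor, Larp1, Myc, Mycn, Mdm2, Eef1a1, Eef2, Krt5 and Krt14 are given beyond that rule. The copies Rpl34-ps1 and Rps6-ps4 are as well. Members, gene lists, roles and motifs were chosen with earlier results of these data known. Some genes are not reported here by name, although the counts and medians include them. No set test was run.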

Additional observations from a re-analysis of the deposited data

How the results depend on the processing

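Of the 84 members, 1 was called at the authors' adjusted p of 0.05, against 3.09% of all genes. The count was 0 at an adjusted p of 0.01 (all genes 1.92%), 26 at an unadjusted p of 0.05 (25 lower, 1 higher; all genes 14.2%), 0 with the linear model rebuilt from mean z-scores, which also called 0 of all genes, 0 once the trend with length and GC was taken out (all genes 3.41%), and 1 both after centring (3.20%) and with adjustment over genes of at least 1 CPM (4.67%). Rpl36, the called gene, had an adjusted p of 0.129 and a log2 fold change of -0.79 after the trend was removed. The median log2 fold change of the members was negative under each of the 8 alternatives, between -0.42 and -0.29, and with Rps3a1 added, a choice made after seeing the data, it was -0.39. The difference between large and small subunit genes lay between 0.03 and 0.09. Of the 44 members picked by the naming rule, 44 kept their direction and side of the threshold after centring. Centring moved every log2 fold change by 0.0068, and the smallest of the 44 in size was 0.023 (Rpl7), so no direction could turn. After trend removal 42 of the 44 kept both. There Rpl36 lost its call, and Rpl36al had -0.04 without trend removal and 0.012 with it. No paired analysis was possible because the values used are summaries per genotype with no value per library, and for the same reason leaving out each replicate in turn was not run. The unknown depth gives no counting interval, and genes of low expression such as Rpl32l have wide implied intervals.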
